A study of Mus musculus with 6 samples.

Results

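The microRNAs miR-34a, miR-34b, miR-34c and miR-449 share one seed, the stretch near the 5′ end with which a microRNA pairs to its target messages. They were taken as the probes that the array's annotation names mmu-miR-34a, mmu-miR-34b, mmu-miR-34c or mmu-miR-449. These gave 4 of the 334 mouse microRNA probes on the array. All 4 were bright enough to test, which 40 of the 334 were not. The rule uses probe names and no measured value.

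The family is best known in mammals as an arm of the p53 response: p53 activates transcription of the miR-34a gene and of the shared miR-34b and miR-34c transcript, and the mature forms repress messages of cell cycle and survival genes. The miR-449 genes lie in an intron of Cdc20b beside Mcidas, a regulator of multiciliated cell formation, and miR-449 acts together with miR-34b and miR-34c in the formation of motile cilia. BRCA1, the human gene varied in these samples, encodes a tumour suppressor of DNA double-strand break repair and transcription.

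RNA came from embryoid bodies on day 7 of their culture; these are aggregates of mouse embryonic stem cells that have started to differentiate. Those of the RQ group carried human BRCA1 with the missense change R1699Q, those of the MI group human BRCA1 with M1652I, and those of the WT group wild-type human BRCA1. Each group had 2 replicates on 1 array each, 6 arrays in all. The labels give the strain of all of them as 129S7/SvEv Brd-Hprt b-m2; the number of stem cell clones and the state of the mouse Brca1 gene are not given in the sources used here. On every array the group's own RNA was labelled with a Cy3-type dye and the RNA named in the labels as a wild-type BRCA1 embryoid body control with a Cy5-type dye, with no dye swap. Values are the log2 of Cy3 over Cy5, averaged over the 4 spots of a probe. The labels do not say whether replicates were separate cultures, so the p-values reflect the spread between arrays alone, and that spread may be technical. All 6 arrays were on 1 slide and in 1 scan. Row 2 of the slide held the RQ and MI arrays and row 1 the WT arrays, so slide row and the presence of a mutation cannot be told apart. Within row 2 the MI arrays were in columns 1 and 2 and the RQ arrays in columns 3 and 4. Slide column and the difference between RQ and MI cannot be told apart either.

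Cy3 and Cy5 did not look like the same kind of tissue. Of 12 listed embryonic stem cell microRNAs 7 were matched on the array, and all 7 were well above background in Cy3 on all 6 arrays. In Cy5 only 2 of them were. One of these, miR-294, had Cy3 signals between 18600 and 32500 and Cy5 signals between 29.3 and 53. The red cell microRNA miR-451 stood at 65200 in Cy5 on all 6 arrays, against 680 to 754 in Cy3. Whether this unchanging Cy5 value was the ceiling of the scan was not tested, so it is read only as very bright. The liver microRNA miR-122a stood at 4130 to 6300 in Cy5, against 297 to 567 in Cy3. The Cy5 RNA thus went against its label, and no ratio below is read as a level relative to wild-type embryoid bodies. Groups are compared only with each other, over a Cy5 signal common to all arrays. Replicate arrays correlated over the tested probes with r of 0.994 in RQ, 0.993 in MI and 0.987 in WT.

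The mature sequences, credited to RefSeq with the table's build GRCm38.p6, are shown because the shared seed defines the family. Bases 2 to 8, in capitals, are the seed. That table held no mature miR-34c-5p sequence, and its place is taken by its probe, shown further on.
mmu-miR-34a-5p: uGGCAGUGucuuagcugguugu
mmu-miR-34b-5p: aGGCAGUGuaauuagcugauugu
mmu-miR-449a-5p: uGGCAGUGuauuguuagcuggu

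The seed GGCAGUG stood at bases 2 to 8 of 4 of the 1679 mature mouse names in that table, these 3 and miR-449c-5p. Since miR-34c-5p was missing from the names searched, this count could not include it. The miR-34c probe does hold the complement of this seed. The miR-34a hairpin lies at chr4:150068454-150068555 on the plus strand (GRCm38.p6), in no other gene, between H6pd and Gpr157. The miR-34b hairpin lies at chr9:51103562-51103645 and the miR-34c hairpin at chr9:51103034-51103110, both on the minus strand and within the spans of Btg4 and Hoatz. The hairpin matched by the miR-449 probe is that of miR-449a at chr13:113037534-113037624, plus strand, within Cdc20b. The array also holds a probe it names mmu-miR-449b. That probe matched the miR-449c hairpin at chr13:113035983-113036091, also within Cdc20b, and is followed below beside the members without being one of them.

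The parts of the 60-base probes whose reverse complement lies in these hairpins show how far the probes could tell the members apart. The capitals mark the complement of the seed.
mmu-miR-34a probe: aacaaccagctaagaCACTGCCa
mmu-miR-34b probe: caatcagctaattaCACTGCCtaca
mmu-miR-34c probe: gcaatcagctaactaCACTGCCt
mmu-miR-449 probe: accagctaacaataCACTGCCa
mmu-miR-449b probe: ccagctagcaatgCACTGCCtgcc

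Read from the first base of the seed, the targets of the miR-34b and miR-34c probes differed at 1 of 21 aligned bases, A10G. The miR-449 and miR-449b targets differed at 2 of 20, T8C and T13C. The miR-34a target differed from that of miR-449 at 7 of 21 bases and from that of miR-34b at 10 of 21. In these tokens the first-named probe's base comes first, written as DNA, and positions count from 1 at the first seed base. The counts allow no gaps. With insertions and deletions allowed, the miR-34a target was 6 single-base changes from that of miR-449. It was 5 from those of miR-34b and miR-34c, so the order of likeness turned. How much of the signal of either miR-34b or miR-34c came from the other was not tested, so these are given as measurements of 2 near-identical probes.

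All 4 members were well above background on all 4 spots, in both dyes and on all 6 arrays. The Cy3 signal of miR-34a ranged from 268 to 631, that of miR-34b from 138 to 226, that of miR-34c from 159 to 274 and that of miR-449 from 66.8 to 247. The Cy5 signals of miR-34b (2210 to 2520) and miR-34c (2510 to 2930) were far brighter than their own Cy3 signals, as were those of miR-449 (528 to 708). For miR-34a both dyes were alike in brightness, with Cy5 between 330 and 488. The log ratios of miR-34b, miR-34c and miR-449 are negative on every array for that reason.

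**Figure D1:**
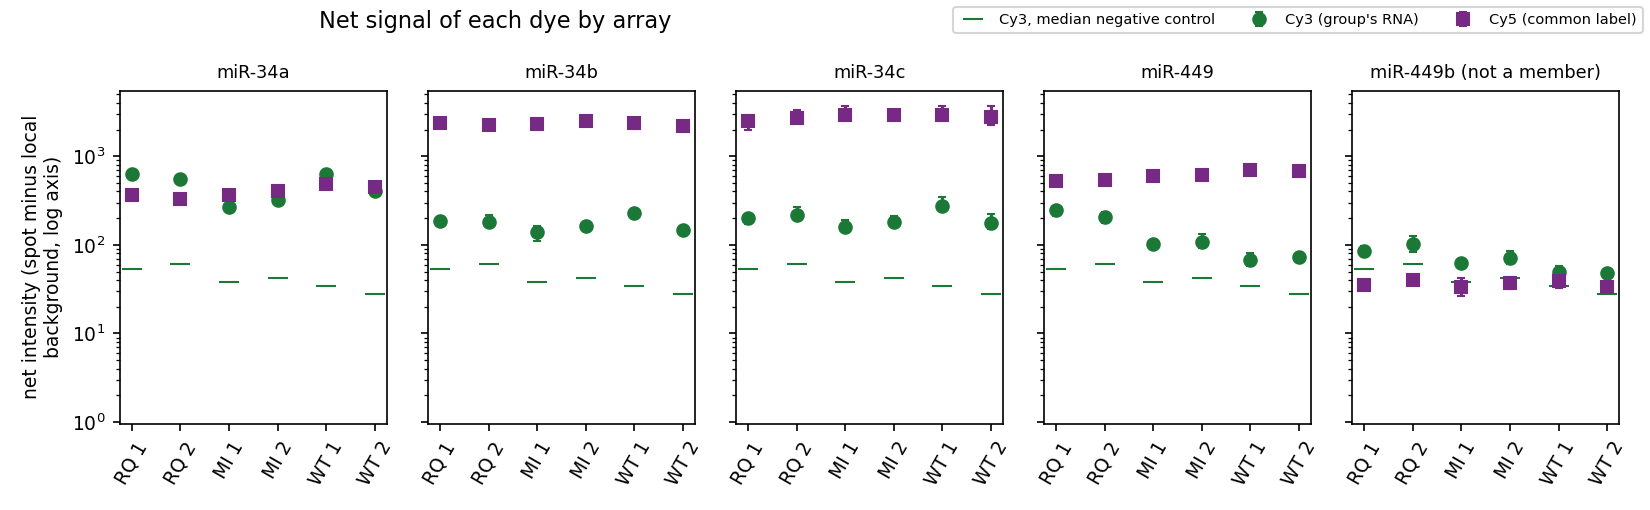
Net signal (spot minus local background, log axis) of the 4 family members and of miR-449b on each array. Circles are the mean Cy3 signal and squares the mean Cy5 signal of the spots of a probe, bars run from the lowest to the highest spot, and dashes give the median Cy3 signal of the negative control spots. The Cy3 signal of miR-449 is highest on the 2 RQ arrays and lowest on the 2 WT arrays, while Cy5 of miR-34b and miR-34c stays at 2210 or above throughout.

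miR-449 was higher in the RQ embryoid bodies than in WT, and it was the family member with the largest difference. Its log2 Cy3 over Cy5 was -1.67 and -2.04 on the RQ arrays, -2.31 and -2.56 on the MI arrays and -3.39 and -3.06 on the WT arrays. The 3 groups did not overlap, with RQ highest and WT lowest. Absence of overlap was common, at 62.6% of all tested microRNAs between RQ and WT, 68.4% between MI and WT and 65.0% between RQ and MI. The means were -1.86 ± 0.26 in RQ, -2.44 ± 0.17 in MI and -3.23 ± 0.23 in WT (SD, n = 2 each). In such bulk samples fewer cells of a type and less RNA per cell cannot be told apart.

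RQ exceeded WT by 1.37 ± 0.19 log2 units (SE), a 2.58-fold higher ratio with a 95% interval of 0.91 to 1.83 log2 units and an adjusted p of 0.00808. Among the tested microRNAs it ranked 2 from the highest in that comparison. Of all tested microRNAs, 21.4% passed an adjusted p under 0.05 between RQ and WT, 7.48% as higher and 13.9% as lower, so calls were common among all microRNAs. The call was lost without RQ replicate 1, where the change was 1.18 with an adjusted p of 0.0556. It passed in the 18 other settings tried, some of which repeat the same fit or keep the change by construction.

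The Cy3 signals behind the miR-449 ratio were 247 and 207 in RQ, 102 and 108 in MI and 66.8 and 72.5 in WT. In Cy5 miR-449 gave 528 and 537 on the RQ arrays, 593 and 612 on the MI arrays and 708 and 683 on the WT arrays. Both dyes differed: RQ over WT was 3.26 in Cy3 and 0.765 in Cy5. Over all tested microRNAs the median ratio of RQ to WT was 1.43 in Cy3 and 0.865 in Cy5, in the same directions. Spots did not overlap within Cy3: on the RQ arrays they ran from 177 to 277, and on the WT arrays from 57 to 81.

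The negative control spots were brighter in RQ as well. Their median Cy3 signal was 54 and 61 on the RQ arrays, 37.8 and 42.5 on the MI arrays and 34.3 and 28.2 on the WT arrays. The Cy3 signal of miR-449 was 4.57 and 3.39 times that median in RQ, 2.71 and 2.54 times in MI and 1.95 and 2.57 times in WT. Set against the negative control mean, which a few bright control spots raise, it was 2.65 and 2.01 times in RQ, 2.33 and 1.82 times in MI and 1.12 and 1.65 times in WT. The WT signal was thus close to that of the negative controls, and the folds over WT are no more exact than it. With each array's negative control median subtracted in place of the fitted background, RQ minus WT was 1.48 with an adjusted p of 0.00519. With Cy3 alone, normalised between arrays, it was 0.78, smaller by more than 1.5 times but still past the threshold, and with the scanner's processed signals 2.46, larger by more than 1.5 times.

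MI was also higher than WT for miR-449, by a smaller amount. The difference was 0.79 ± 0.19 log2 units, or 1.73-fold, with a 95% interval of 0.33 to 1.25 and an adjusted p of 0.0424. In this comparison 15.6% of all tested microRNAs were called, 9.18% as higher and 6.46% as lower, and miR-449 ranked 18 from the highest. This call lay close to the threshold. It was lost in 13 of 19 other settings, with adjusted p-values between 0.0281 and 0.229 over them all. Among those were Cy3 alone, where the change was 0.38, and leaving out any one of the arrays other than WT replicate 2.

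RQ exceeded MI for miR-449 by 0.58 ± 0.19 log2 units, with a 95% interval of 0.12 to 1.04 and an adjusted p of 0.115. That did not pass the threshold, although no RQ array overlapped the MI arrays. It passed under median centring (0.77, adjusted p = 0.0161), and with the processed signals the difference was 1.21 (adjusted p = 0.0846).

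The probe named miR-449b, matched to the neighbouring miR-449c hairpin, passed in no comparison. Its log ratios were -0.13 and -0.09 in RQ, -0.04 and -0.06 in MI and -0.22 and -0.14 in WT. RQ minus WT was 0.07 (adjusted p = 0.646), MI minus WT 0.13 (adjusted p = 0.386) and RQ minus MI -0.06 (adjusted p = 0.744). Its signal was dim, with Cy3 at 85 and 101 in RQ, 62 and 71.8 in MI and 49 and 47.8 in WT, and on only 1 array were all 4 spots above background in Cy3. The Cy5 signal was between 33.4 and 40.2. With an offset of 50 added to signals this low, the log ratio understates any change. In Cy3 alone, before normalisation, RQ over WT was 1.92, beside a median of 1.43 over all tested microRNAs. The negative controls were brighter in RQ too. The Cy3 signal of miR-449b was 1.57 and 1.65 times their median in RQ and 1.43 and 1.69 times in WT, so these overlapped. Over the 6 arrays its log ratio correlated with that of miR-449 with r = 0.554.

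The microRNAs of the chromosome 9 transcript, miR-34b and miR-34c, were lowest in RQ and highest in WT, the opposite order from miR-449. The log ratio of miR-34b was -3.61 and -3.42 in RQ, -3.06 and -3.33 in MI and -2.87 and -3.17 in WT. MI and WT arrays overlapped, and both RQ arrays lay below them. For miR-34c it was -3.62 and -3.36 in RQ, -3.09 and -3.36 in MI and -2.74 and -2.97 in WT. Both WT arrays lay above every MI and RQ array, and the lower MI array came within rounding of the higher RQ array.

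miR-34c fell in RQ against WT by 0.63 ± 0.16 log2 units, with a 95% interval of -1.03 to -0.24 and an adjusted p of 0.0431. The call was lost in 13 of 19 other settings, where the adjusted p ran up to 0.228; the change stayed negative in all of them, between -1.09 and -0.31. It was lost without either RQ array, without either MI array and without WT replicate 1. miR-34b differed between RQ and WT by -0.49 ± 0.16, with an interval of -0.89 to -0.09 and an adjusted p of 0.0855, which did not pass. It passed in 4 of 19 other settings, among them Cy3 alone (-0.51) and the scanner's processed signals (-1.13).

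Neither probe passed in the other comparisons. MI minus WT was -0.17 for miR-34b (adjusted p = 0.465) and -0.36 for miR-34c (adjusted p = 0.164); with the processed signals these were -0.76 and -0.82. Without WT replicate 1 the miR-34b difference was -0.02, and without WT replicate 2 it was -0.32. RQ minus MI was -0.32 for miR-34b (adjusted p = 0.257) and -0.27 for miR-34c (adjusted p = 0.347; 0.08, the other sign, under median centring). The raw Cy3 signals of these probes did not separate RQ and WT. The Cy3 signal of miR-34c was 201 and 219 in RQ, 159 and 183 in MI and 274 and 176 in WT, so RQ lay within the WT range, and so did that of miR-34b at 188 and 181 in RQ, 138 and 164 in MI and 226 and 146 in WT. RQ over WT in Cy3 was 0.935 for miR-34c and 0.993 for miR-34b, where the median microRNA stood at 1.43. The lower ratio thus describes miR-34b and miR-34c relative to the other probes of the same arrays.

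miR-34a was lower in MI than in RQ, while RQ and WT were not told apart. Its log ratio was 0.42 and 0.31 in RQ, -0.33 and -0.51 in MI and 0.32 and -0.11 in WT. The MI arrays lay below all others, and WT replicate 1 lay among the RQ arrays. Means were 0.37 ± 0.08 in RQ, -0.42 ± 0.13 in MI and 0.11 ± 0.3 in WT (SD, n = 2 each).

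RQ minus MI was 0.79 ± 0.17 log2 units for miR-34a, or 1.73-fold, with a 95% interval of 0.37 to 1.21 and an adjusted p of 0.0376. Of all tested microRNAs 10.9% were called in this comparison, 3.06% as higher in RQ and 7.82% as lower. The Cy3 signals were 626 and 559 in RQ and 268 and 318 in MI. The call was lost in 9 of 19 other settings, where the change stayed positive; it was 0.30 with Cy3 alone, and it was lost without any single RQ or MI array, at changes between 0.70 and 0.88.

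MI minus WT was -0.53 ± 0.17 for miR-34a (interval -0.95 to -0.11, adjusted p = 0.0843) and did not pass. It passed with Cy3 alone (-0.60, adjusted p = 0.0416) and without WT replicate 2 (-0.75, adjusted p = 0.0262). The WT arrays had Cy3 signals of 631 and 400 and the widest spread of the 3 groups. RQ minus WT was 0.26 ± 0.17 (interval -0.16 to 0.68, adjusted p = 0.327), and its sign turned with Cy3 alone (-0.29) and under the processed signals (-0.28). Without WT replicate 1 it was 0.47 and without WT replicate 2 it was 0.04.

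**Figure D2:**
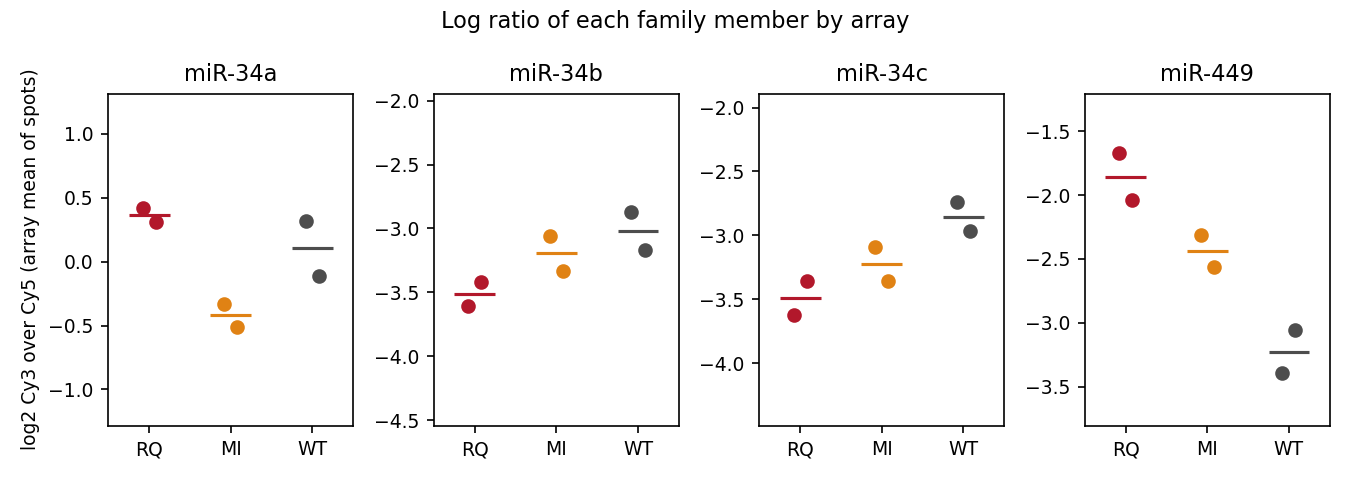
Log2 Cy3 over Cy5 of each member by group. Points are the 2 arrays of a group and lines their mean; each panel spans the same range of 2.6 log2 units around that member's mean. The RQ arrays are highest for miR-449 and lowest for miR-34b and miR-34c, and the MI arrays are lowest for miR-34a.

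The members therefore did not move as one. Of the 4, 1 was called higher and 1 lower between RQ and WT, 1 higher and 0 lower between MI and WT, and 1 higher and 0 lower between RQ and MI, beside 21.4%, 15.6% and 10.9% of all tested microRNAs called in those comparisons. At an unadjusted p under 0.05 in limma the counts were 1 higher and 2 lower, 1 higher and 1 lower, and 2 higher and 0 lower, beside 37.4%, 36.7% and 26.5% of all tested microRNAs. With 4 members these counts do not set the family apart from the rest. The median change of the 4 was -0.11 between RQ and WT, -0.27 between MI and WT and 0.15 between RQ and MI. Over all tested microRNAs it was 0.03, 0.11 and -0.10 in the same comparisons.

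Differences between members taken within an array are free of a constant shift between arrays, but not of the normalisation by intensity. The log ratio of miR-449 minus that of miR-34b was 1.94 and 1.37 in RQ, 0.75 and 0.77 in MI and -0.52 and 0.11 in WT. That of miR-449 minus miR-34c was 1.95 and 1.32 in RQ, 0.77 and 0.80 in MI and -0.65 and -0.09 in WT. In both differences the 3 groups were apart, with RQ highest and WT lowest. That follows in part from the opposite orders of the single members given above. How often other pairs of microRNAs are apart was not computed. Of single microRNAs, 62.6% to 68.4% did not overlap between 2 groups. The RQ minus WT change of miR-449 minus miR-34b was 1.86 as reported, 3.59 with the processed signals and 1.29 with Cy3 alone. That of miR-449 minus miR-34a was -2.09 and -2.36 in RQ, -1.98 and -2.05 in MI and -3.72 and -2.95 in WT, with WT lowest and the MI arrays above the RQ arrays. That of miR-34a minus miR-34b was 4.03 and 3.73 in RQ, 2.73 and 2.82 in MI and 3.2 and 3.07 in WT, with MI lowest. By contrast miR-34c minus miR-34b stayed between -0.03 and 0.20 on all 6 arrays.

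Over the 6 arrays, which share the Cy5 RNA and fall into 3 groups, miR-34b and miR-34c correlated with r = 0.964. miR-449 correlated with r = -0.918 with miR-34c and -0.849 with miR-34b, and miR-34a with r = 0.186 with miR-449 and -0.102 with miR-34c. The median over all pairs of tested microRNAs was 0.059. That median keeps the sign of r, so it does not show how often pairs reach values this large in either direction. Such a share was not computed, and the family correlations are not read as unusual. Outside the family, the highest correlation was r = 0.983 for miR-449, with miR-151, and r = 0.933 for miR-34c, with miR-20a.

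**Figure D3:**
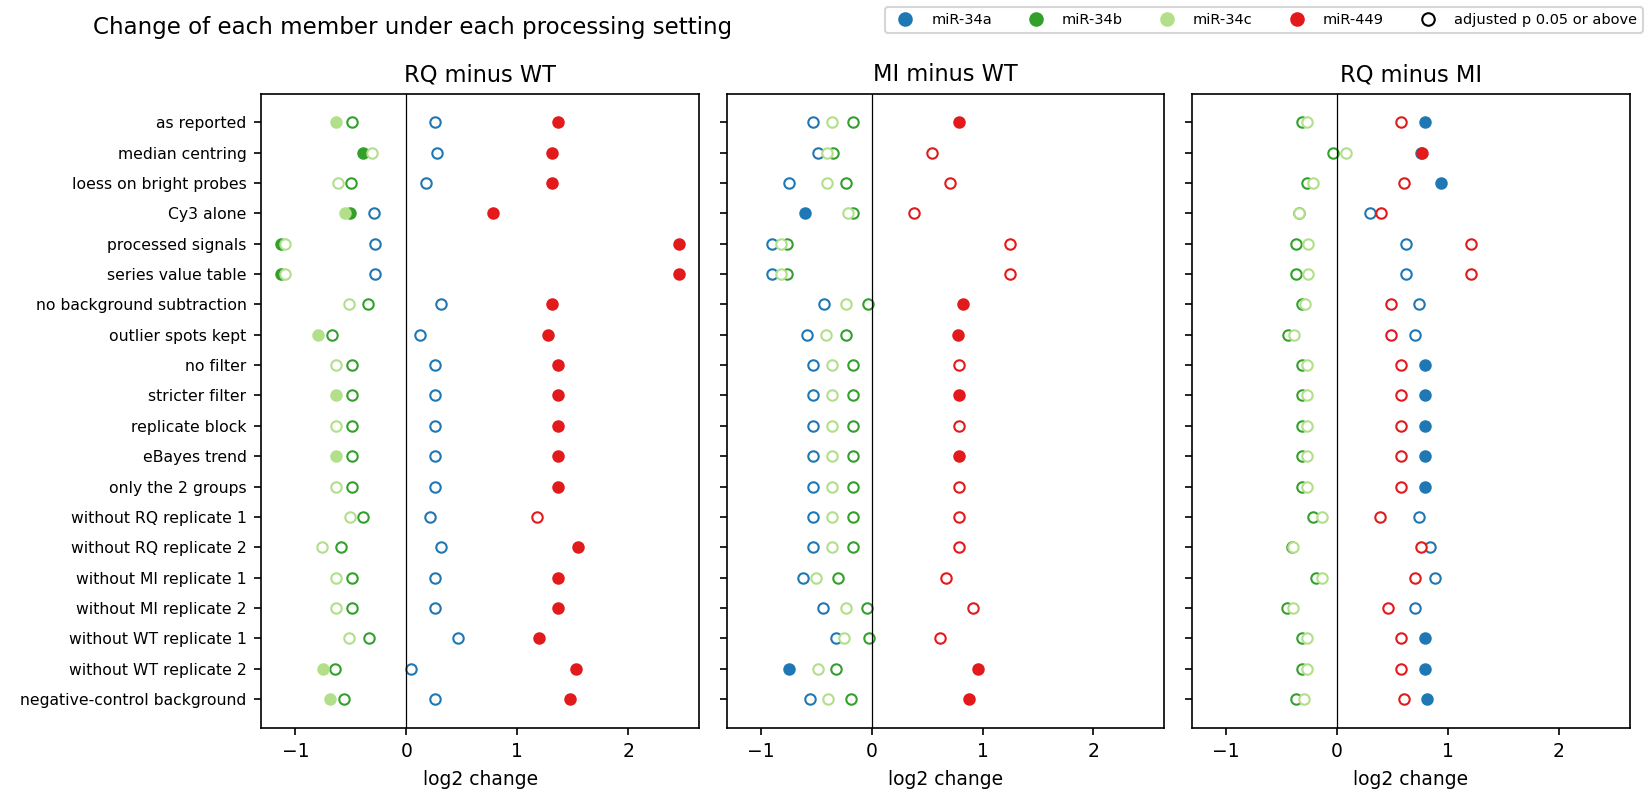
Log2 change of each member in RQ minus WT, MI minus WT and RQ minus MI as reported and under 19 other processing settings. Filled points have an adjusted p under 0.05 and open points do not. miR-449 stays between 0.78 and 2.46 in RQ minus WT and is open there only without RQ replicate 1, whereas calls of the other members turn with the setting.

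The microRNAs whose log ratio ran most like that of a called member over the 6 arrays were taken by Pearson correlation, the 5 highest outside the family for each. These microRNAs were picked on the same arrays, so group changes like the member's follow in part from the choice and are no separate support. For miR-449 they were miR-151 (r = 0.983), miR-702 (0.977), miR-219 (0.958), miR-503 (0.95) and miR-150 (0.946). miR-151 rose in both mutants against WT, by 1.00 in RQ (adjusted p = 0.00808) and 0.51 in MI (adjusted p = 0.0491). miR-150, a microRNA of mature lymphocytes, rose in RQ by 0.76 (adjusted p = 0.0121) and miR-702 by 0.57 (adjusted p = 0.0369). For miR-219, best known from oligodendrocytes, RQ minus WT was 0.27 (adjusted p = 0.111), and for miR-503 it was 0.42 (adjusted p = 0.0798).

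For miR-34a the most alike were miR-374-5p (r = 0.965), miR-26b (0.948), miR-367 (0.908), miR-187 (0.896) and miR-363 (0.871). For miR-26b MI minus WT was -1.23 (adjusted p = 0.0114) and RQ minus MI 1.46 (adjusted p = 0.0146). miR-367, a stem cell microRNA of the miR-302 transcript, gave -0.79 in MI minus WT (adjusted p = 0.00604) and 0.88 in RQ minus MI (adjusted p = 0.0146). miR-187 was higher in RQ than in MI by 0.53 (adjusted p = 0.037). For miR-34c they were miR-20a (r = 0.933), miR-24 (0.929), miR-424 (0.923), miR-467* (0.907) and miR-189 (0.907). Of these, miR-24 (-0.62, adjusted p = 0.0222) and miR-467* (-1.06, adjusted p = 0.00808) fell in RQ against WT.

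MicroRNAs linked to p53 in the literature were counted beside the family. The list held miR-34a, miR-34b, miR-34c, miR-15a, miR-16, miR-107, miR-143, miR-145, miR-192, miR-194, miR-200c and miR-215, and all 12 were tested. In Cy3 only 9 of the 12 were well above background on all 6 arrays. The others, miR-192, miR-194 and miR-215, were so on 1, 0 and 2 arrays, and in Cy5 on all 6. Their small changes enter the medians below. Between RQ and WT 0 were called higher and 4 lower, where 7.48% of all tested microRNAs were called higher and 13.9% lower. The 4 were miR-34c, miR-16 (-1.17, adjusted p = 0.0241), miR-107 (-1.35, adjusted p = 0.0121) and miR-145 (-0.68, adjusted p = 0.0472). miR-16 is known for restraining the cell cycle, and miR-145 as a smooth muscle microRNA that represses pluripotency factors. The median of the list was -0.26, and -0.12 over the 9 outside the family, beside 0.03 over all microRNAs. At an unadjusted p under 0.05 in limma the count was 1 higher and 6 lower of the 12, beside 37.4% of all tested microRNAs.

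Between MI and WT 0 of the 12 were called by limma in either direction, beside 15.6% of all. At an unadjusted p under 0.05 there were 2 higher and 4 lower, beside 36.7% of all. The list median was -0.21, or 0.06 over the 9. The 4 largest changes were miR-16 (-0.81, adjusted p = 0.0779), miR-143 (0.72, adjusted p = 0.0953), miR-34a (-0.53) and miR-15a (-0.41, adjusted p = 0.0953). Between RQ and MI 1 was called higher, miR-34a, and 2 lower, miR-107 (-1.11, adjusted p = 0.037) and miR-145 (-0.97, adjusted p = 0.0339), beside 3.06% and 7.82% of all. The fourth in size was miR-143 (-0.39, adjusted p = 0.365). The list median of RQ minus MI was -0.20, and 0.04 under median centring.

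**Figure D4:**
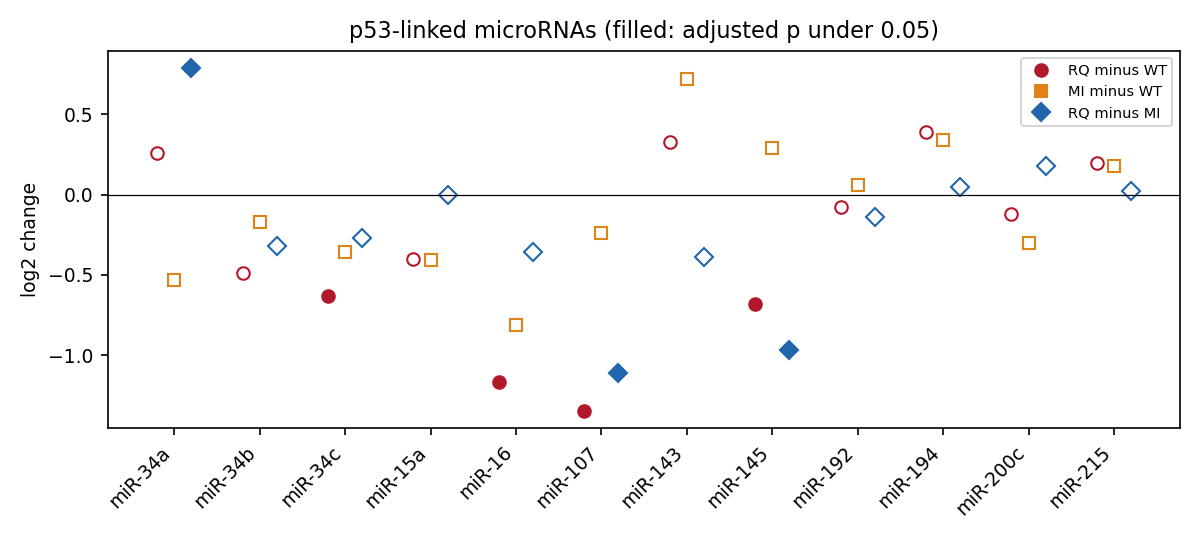
Log2 change of the 12 p53-linked microRNAs in RQ minus WT (circles), MI minus WT (squares) and RQ minus MI (diamonds), with filled symbols at an adjusted p under 0.05. The filled circles, miR-34c, miR-16, miR-107 and miR-145, all lie below 0, and miR-34a is the only filled symbol above 0.

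Some markers of cell types that embryoid bodies can hold were also called between the groups. The raw Cy3 sums of each list are given with the counts of calls on the log ratio, since raw Cy3 in RQ was 1.43 times that in WT for the median microRNA. Of all tested microRNAs, 7.48% were called higher and 13.9% lower between RQ and WT. The shares were 9.18% and 6.46% between MI and WT, and 3.06% and 7.82% between RQ and MI. The counts of every list below stand beside these shares, and lists this short do not set a cell type apart from them. The 7 stem cell microRNAs summed to 61960 to 64740 in RQ, 45580 to 58740 in MI and 46100 to 81810 in WT. Of them 0 were called higher and 3 lower in RQ against WT, 0 higher and 3 lower in MI against WT, and 3 higher and 1 lower in RQ against MI, with median changes of -0.54, -0.43 and -0.40. The 3 that were higher in RQ than in MI were miR-302, miR-302d and miR-367, as miR-34a was.

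The 7 epithelial microRNAs summed to 2188 to 2242 in RQ, 1257 to 1485 in MI and 1943 to 2798 in WT, and 6 were well above background on all arrays. In RQ against WT 1 was called higher, miR-205 (0.61), and 1 lower, miR-200a (-1.44). In MI against WT 0 were called higher and 1 lower, again miR-200a (-1.59, adjusted p = 0.00464). Of all tested microRNAs 9.18% were called higher and 6.46% lower in that comparison. The 4 leukocyte microRNAs summed to 1098 to 1109 in RQ, 338 to 372.9 in MI and 349.4 to 422.2 in WT, with 2 above background throughout. The 2 called higher in RQ than in WT were miR-155 (1.35, adjusted p = 0.00808), whose Cy3 signal spanned 48.9 to 608, and miR-150; miR-142-5p (0.21) and miR-223 (0.10) did not pass.

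The 5 mesenchymal microRNAs summed to 3887 to 4356 in RQ, 2555 to 3596 in MI and 1967 to 2870 in WT, all above background throughout. In RQ against WT 0 were called higher and 2 lower, miR-145 (-0.68) and miR-21 (-1.35), with a median of 0.01. In MI against WT 1 was called higher, miR-214 (0.72, adjusted p = 0.0137), and 0 lower. The 5 neural microRNAs summed to 1613 to 1743 in RQ, 999.6 to 1181 in MI and 1033 to 1090 in WT. Of them 3 were above background throughout, and 1, miR-153, was called higher in RQ than in WT (0.38, adjusted p = 0.0471). The Cy3 signal of miR-153, 36.3 to 96.2, was well above background on 0 arrays, and it entered the test through Cy5. RQ minus WT changes of the 5 ran from -0.54 (miR-124a) to 0.39 (miR-128b). The 4 muscle and heart microRNAs summed to 2399 to 3295 in RQ, 1950 to 2676 in MI and 1192 to 1209 in WT. Of them 2 were above background throughout, and 1, miR-1, was called lower in RQ than in WT (-1.03). The brightest of the 4 in Cy3 was miR-206, at 892 to 2930. It went the other way, by 0.77 in RQ minus WT (adjusted p = 0.142) and by 1.49 in MI minus WT (adjusted p = 0.034, called higher). The 4 liver and endoderm microRNAs summed to 1268 to 1500 in RQ, 468.2 to 911.5 in MI and 450.3 to 465.4 in WT. Of them 1 was above background throughout, and RQ minus WT changes lay between -0.10 and 0.39, none past the threshold. These sums lean on miR-375, whose Cy3 signal spanned 56.9 to 783 though it was well above background on 0 arrays. The raw sums keep spots marked as outliers, which the log ratios leave out. The RQ minus WT change of miR-375 was 0.08. The part of these differences in the results on miR-449 and miR-34a was not tested.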

How the data were processed

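Scanner files of 6 two-colour arrays were used, written by the scanner software Agilent Feature Extraction, version 9.5.1.1. Per the file headers, each spot has a mean intensity and a local background intensity, both linear. The deposited log10 ratio divides the processed Cy5 signal by the processed Cy3 signal; recomputing it changed no spot by more than 0.0779. The authors' deposited value table equalled minus that log10 ratio (largest difference 0), so it is Cy3 over Cy5; each column's median was 0. The files list 1932 features, with 1336 spots of 334 mouse probes.

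Background was removed with normexp (offset 50) and arrays were loess-normalised on their mouse spots, in limma 3.58.1 under R 4.3.3. Spots marked as outliers by the scanner software (60 to 99 per array) were removed and the 4 spots of a probe averaged as log2 Cy3 over Cy5. Tested were 294 probes with over 0.5 of their spots well above background in either dye on at least 2 arrays. Groups were compared over all 6 arrays by limma's lmFit and eBayes, which had 3 residual and 2.99 prior degrees of freedom, with Benjamini-Hochberg adjustment over the 294; calls had an adjusted p under 0.05. The steps were tested on simulated data. The number of arrays limits the precision. Net signals are spot mean minus local background, before normalisation.

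The members and lists were chosen with earlier results of these data known. Named were all members, the called p53-linked microRNAs and up to 4 with the largest change per comparison, and the 5 microRNAs most correlated with each called member. Alternatives numbered 18 planned and 1 added after seeing the data, the negative-control background. MicroRNA names follow the array's design, and coordinates are of GRCm38.p6.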

Additional observations from a re-analysis of the deposited data

Results flagged for a closer look

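For miR-34a RQ and MI differed by 0.79 log2 units in limma's contrast of the 2 groups (adjusted p = 0.0376), in which the WT arrays cancel. RQ minus WT was 0.26 and MI minus WT was -0.53, and neither passed the threshold by itself. Both RQ arrays lay above both MI arrays, and 65.0% of all tested microRNAs likewise showed no overlap between RQ and MI.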

How the results depend on the processing

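Over the 4 members, 3 comparisons and 19 other settings, 181 of 228 values kept their direction and side of the threshold, 36 lost a call, 7 gained one and 4 changed sign. These counts, and those of settings given above, hold fixed outcomes and repeats. Either filter, the replicate block, the eBayes trend and the 2-group fit could not alter a change, only its p-value. Leaving out either array of the third group gave the same values as the 2-group fit. With Cy3 alone, miR-34a gave -0.29 in RQ minus WT (other sign), -0.60 in MI minus WT (gained) and 0.30 in RQ minus MI (lost), miR-34b gave -0.51 in RQ minus WT (gained), and miR-449 0.38 in MI minus WT (lost). The processed signals and the value table gave the same values: in RQ minus WT -0.28 for miR-34a (other sign), -1.13 for miR-34b (gained) and -1.09 for miR-34c (lost), 1.25 for miR-449 in MI minus WT (lost) and 0.62 for miR-34a in RQ minus MI (lost). Median centring gave -0.39 for miR-34b (gained) and -0.31 for miR-34c (lost) in RQ minus WT, 0.54 for miR-449 in MI minus WT (lost), and in RQ minus MI 0.08 for miR-34c (other sign) and 0.77 for miR-449 (gained, adjusted p = 0.0161). Calls were also lost for miR-34c in RQ minus WT with loess on bright probes (-0.62) or no background subtraction (-0.52), for miR-449 in MI minus WT with loess on bright probes (0.71), and for miR-34a in RQ minus MI with no background subtraction (0.74) or outlier spots kept (0.70). With no filter or only the 2 groups fitted, miR-34c in RQ minus WT (-0.63) and miR-449 in MI minus WT (0.79) kept their value and lost the call, since more probes were adjusted for or fewer samples entered. The cause of the other changes was not tested.

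Leaving out 1 array at a time gave, in RQ minus WT, 1.18 to 1.55 for miR-449 and -0.76 to -0.51 for miR-34c. It gave in MI minus WT 0.62 to 0.96 for miR-449 and -0.75 to -0.32 for miR-34a, and 0.70 to 0.88 for miR-34a in RQ minus MI. The count of called microRNAs ranged over these from 5 (without RQ replicate 1; 40 without RQ replicate 2) to 60 in RQ minus WT and from 6 (without MI replicate 1) to 63 in MI minus WT. In RQ minus MI it ranged from 0 to 48: limma called 0 without RQ replicate 2 (58 at an unadjusted p under 0.05), MI replicate 1 (60) or MI replicate 2 (47), and 1 without RQ replicate 1. A group left with 1 array was assumed to vary like the others. Otherwise the count moved by over 1.5 times with only the 2 groups in MI minus WT (27, against 46), and in RQ minus MI with Cy3 alone (53), no background subtraction (7) and outlier spots kept (14), against 32.

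Scaling moved the direction of calls: RQ minus WT had 22 higher and 41 lower as reported, but 47 higher and 20 lower under median centring and 17 and 75 with Cy3 alone. MI minus WT had 27 and 19 as reported, 17 and 21 under median centring, 12 and 24 with Cy3 alone and 9 and 23 with the processed signals. RQ minus MI had 9 and 23 as reported, 19 and 12 under median centring and 11 and 16 with the processed signals. The median RQ minus WT change of all microRNAs was -0.17 with Cy3 alone and -0.26 under the processed signals, against 0.03. The p53-linked median moved in RQ minus WT to -0.52 with Cy3 alone, -0.70 with the processed signals and value table and -0.49 with the stricter filter, in MI minus WT to -0.40 with the processed signals and value table, and in RQ minus MI to 0.04 under median centring.

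Replicate numbers did not pair the arrays: the replicate differences correlated over the tested microRNAs with r of 0.041 between RQ and MI, 0.119 between RQ and WT and 0.182 between MI and WT. With the replicate number as a block, miR-34c in RQ minus WT (-0.63, adjusted p = 0.0539) and miR-449 in MI minus WT (0.79, adjusted p = 0.0545) lost the call, and the counts were 59, 39 and 38 in RQ minus WT, MI minus WT and RQ minus MI.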
